A study of Mus musculus with 7 samples.

Results

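Transcripts of 10 genes of heart muscle were followed in lymphoid cells sorted from mouse hearts: Myh6, Actc1, Tnnt2, Tnni3, Myl2, Myl3, Nppa, Mb, Ttn and Ryr2. The genes were matched by symbol in the deposited tables, where each symbol had 1 row, so that 10 of 55335 identifiers were described. The sorted cells were type 2 innate lymphoid cells (ILC2s), tissue-resident lymphocytes without antigen receptors that carry the interleukin 33 receptor ST2. The gate was CD45+ Lineage- ST2+. The 7 libraries comprised 3 from naive hearts and 4 from BALB/c heart allografts placed in C57BL/6 (B6) recipients and taken 7 days after transplantation, during acute rejection. The label of 7 days is also given for the naive hearts. ILC2s of 4 to 7 hearts were pooled for a library, and the comparison asks how the transcripts of graft-infiltrating cells differ from those of the naive heart. The labels gave no genotype, age or sex, and no strain for the naive hearts. Transplantation and, where it differs, the strain of the heart cannot be told apart. No further treatment was labelled in either group.

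Cardiomyocytes contract through sarcomeres, in which thick filaments of myosin slide along thin filaments of actin under the control of the troponin complex. Titin spans the sarcomere as an elastic spring, and calcium released through the cardiac ryanodine receptor starts each beat. Myoglobin stores oxygen, and atrial muscle secretes the natriuretic peptide ANP. Transcripts of these proteins are among the most abundant of the myocardium, whereas lymphocytes are not known for a sarcomere.

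Of the 10 heart muscle genes, 4 were at 0 counts in every library, 3 were counted in a single library and 3 in several. Of the 70 values (10 genes in 7 libraries), 52 were 0 counts, which is 74.3%, a share near the 65.9% of all values in the table. The ventricular regulatory light chain gene Myl2, the troponin T gene Tnnt2, the myoglobin gene Mb and the ryanodine receptor gene Ryr2 had 0 counts in all 7 libraries. Total counts ran from 29107326 to 53044907 per library, and a count of 0 allows up to 3 counts, which corresponds to between 0.0566 and 0.103 CPM (counts scaled to a library total of 1000000) depending on the library. The genes Myh6, Myl3 and Nppa had counts in 1 library each. Only Ttn was counted in all 7 libraries, and Tnni3 and Actc1 were counted in 5 and 3. The lowest count above 0 among the 10 genes was 17. In the whole table, 21.2% of the counts above 0 were smaller than that.

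**Figure D1:**
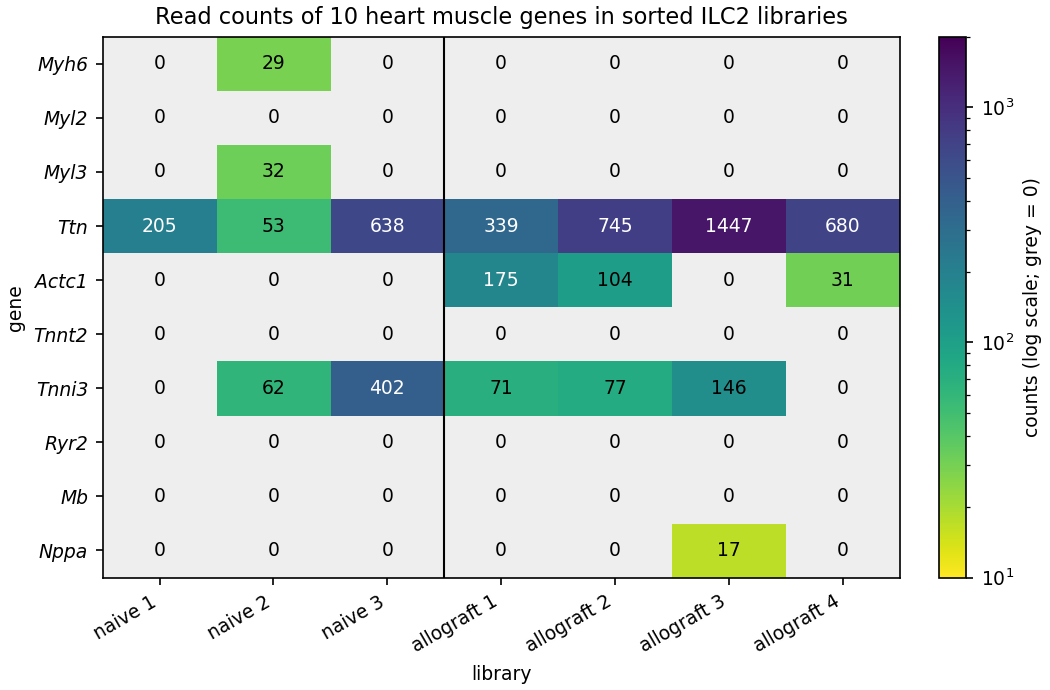
Read counts of the 10 heart muscle genes (rows) in the 3 naive and 4 allograft libraries (columns), with each count printed in its cell, colour on a log scale and grey for 0. Of the 70 cells, 52 are grey, 4 genes are grey in every library, and only the Ttn row is filled throughout.

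The 10 genes are protein coding. In GRCm38, the build the submitters' processing notes name as mm10, GENCODE M21 places Myh6 at chr14:54941921-54966927, Myl2 at chr5:122100951-122113472, Myl3 at chr9:110741861-110769798 and Ttn at chr2:76703980-76982547. It places Actc1 at chr2:114047282-114053548, Tnnt2 at chr1:135836354-135852260 and Tnni3 at chr7:4518305-4524229. Ryr2 lies at chr13:11553102-12106945, Mb at chr15:77015487-77050670 and Nppa at chr4:148000722-148002079. RefSeq promoter windows of GRCm38.p6 were found for all 10 genes, 14 windows of 300 bases in all. The 250 bases upstream of the annotated start are shown for 3 genes, 1 each of those counted in every library (Ttn), in a single library (Nppa) and in none (Tnnt2). Capitals mark matches on either strand to the MEF2 motif (CTA and TAG with 4 bases of any kind between them), to the GATA motif, spelled AGATAA, to the MCAT motif, spelled CATTCC, and to the TATA motif, spelled TATAAA; no motif contains another. The stretches are chr2:76982548-76982797 on the minus strand for Ttn, and chr4:148000472-148000721 and chr1:135836084-135836333 on the plus strand for Nppa and Tnnt2, written 5′ to 3′.
Ttn: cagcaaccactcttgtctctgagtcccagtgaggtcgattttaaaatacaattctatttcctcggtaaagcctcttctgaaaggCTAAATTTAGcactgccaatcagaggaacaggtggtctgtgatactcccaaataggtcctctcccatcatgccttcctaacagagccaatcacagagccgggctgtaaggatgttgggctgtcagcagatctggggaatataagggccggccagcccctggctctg
Nppa: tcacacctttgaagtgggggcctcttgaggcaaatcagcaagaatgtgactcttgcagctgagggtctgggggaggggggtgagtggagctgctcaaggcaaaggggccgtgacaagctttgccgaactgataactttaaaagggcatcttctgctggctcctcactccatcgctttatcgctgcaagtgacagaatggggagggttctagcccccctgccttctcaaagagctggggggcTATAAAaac
Tnnt2: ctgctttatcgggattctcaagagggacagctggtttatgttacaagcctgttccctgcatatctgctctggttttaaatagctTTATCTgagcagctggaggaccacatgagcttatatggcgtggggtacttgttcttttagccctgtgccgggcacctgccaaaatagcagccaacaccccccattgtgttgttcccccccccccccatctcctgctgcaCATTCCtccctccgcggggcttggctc
In the whole windows, a MEF2 match was found in 1 of the 10 genes, Ttn, where 3.69% of the 32851 promoter windows hold one. A GATA match was found for Myl2 and Tnnt2 (11.2% of all windows), an MCAT match for Myh6, Myl3, Tnnt2 and Ttn (14.7%), and a TATA match for Actc1, Myh6, Myl2 and Nppa (13.6%). The shares are per window: of the 14 member windows, 1 held a MEF2, 2 a GATA, 4 an MCAT and 4 a TATA match. Both Myl2 windows, which end at chr5:122092773 and chr5:122093238, lie upstream of the GENCODE M21 gene, which starts at chr5:122100951. The Tnni3 window, the Ryr2 window and all Mb windows held none of the 4. The MCAT match of Ttn begins downstream of the annotated start and so lies outside the stretch shown. A match is a description of the letters only.

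Among the thick filament genes, Myh6 encodes the alpha myosin heavy chain, the main motor of the adult mouse heart. It had 29 counts in naive replicate 2 and 0 in the other 6 libraries. Myl3, the ventricular essential light chain, had 32 counts in naive replicate 2 and 0 elsewhere. Both genes were therefore seen in the same single library, and without it 4 of the 10 genes had a count instead of 6. Myh6 and its neighbour Myh7, the beta myosin heavy chain, are close paralogs that lie side by side: 22.6% of the 50-base windows of the longest Myh6 transcript also occur in a transcript of another gene, Myh7 first. Myh7 had 32 counts in naive replicate 2 and 16 in allograft replicate 4, and how the authors' counting split such reads is not given in the sources used here. Myl3 shares 95 exon bases with Pth1r, a parathyroid hormone receptor gene on the opposite strand. Pth1r had 4521 counts in naive replicate 2 and at most 29 elsewhere. The use of strand in counting is not given in the sources used here, so reads from those bases, 4.65% of the Myl3 exon bases, cannot be told apart.

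Titin is the largest known protein, and its transcript is correspondingly long, with 116825 exon bases in the annotation. Ttn had 205, 53 and 638 counts in naive replicates 1 to 3 and 339, 745, 1447 and 680 counts in allograft replicates 1 to 4. On the CPM scale these were 3.86, 1.165 and 14.6 in the naive and 7.70, 23.0, 35.4 and 23.4 in the allograft libraries. The groups overlapped, since naive replicate 3 lay above allograft replicate 1. The naive mean was 6.56 ± 7.13 CPM (SD, n = 3) and the allograft mean was 22.4 ± 11.4 CPM (SD, n = 4). The log2 fold change was 1.68 (SE 0.92, edgeR quasi-likelihood adjusted p = 0.631), a difference within the spread between libraries. Without naive replicate 3 it was 3.01 (edgeR adjusted p = 0.167).

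Tnni3 encodes cardiac troponin I, the inhibitory subunit whose appearance in blood marks heart muscle injury. It had 0, 62 and 402 counts in naive replicates 1 to 3 and 71, 77, 146 and 0 counts in allograft replicates 1 to 4. The highest library was naive replicate 3 at 9.22 CPM, and the 2 libraries at 0 belonged to different groups. The remaining values were 1.36 CPM in naive replicate 2 and 1.61, 2.38 and 3.57 CPM in allograft replicates 1 to 3. The log2 fold change was -1.04 (SE 2.13, edgeR adjusted p = 0.939), and its sign turned to 0.92 without naive replicate 3 (edgeR adjusted p = 0.882). Tnni3 shares 86 exon bases on the same strand with Dnaaf3, a dynein assembly gene, in GENCODE M21. Dnaaf3 had 0, 50 and 56 counts in the naive and 65, 37, 31 and 0 counts in the allograft libraries, and was at 0 in the same libraries as Tnni3. Of the 50-base windows of the longest Tnni3 transcript, 0 occur in another gene's transcript.

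Actc1 encodes cardiac alpha actin, the actin of the heart's thin filaments. It had 0 counts in the 3 naive libraries and 175, 104, 0 and 31 counts in allograft replicates 1 to 4. The corresponding levels were 3.98 CPM in allograft replicate 1 (95% Wilson interval 3.43 to 4.61), 3.21 CPM in replicate 2 (2.65 to 3.89) and 1.07 CPM in replicate 4 (0.750 to 1.51). Allograft replicate 3 was at 0 like the naive libraries, so the groups were not separated. The allograft mean of 2.06 ± 1.85 CPM (SD, n = 4) was 32.3 times the mean naive floor of 0.0638 CPM (3 counts per library). That floor covers counting error only and not the spread between libraries. With 0 counts in every naive library, Actc1 passed the low-count filter only through the allografts, so a fold change above 0 was fixed in advance. The edgeR adjusted p was 0.341. DESeq2 called Actc1 (adjusted p = 0.0214), while the other 9 settings in which it could be tested did not, with adjusted p-values up to 1. None of the 50-base windows of the longest Actc1 transcript occurs in another gene.

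**Figure D2:**
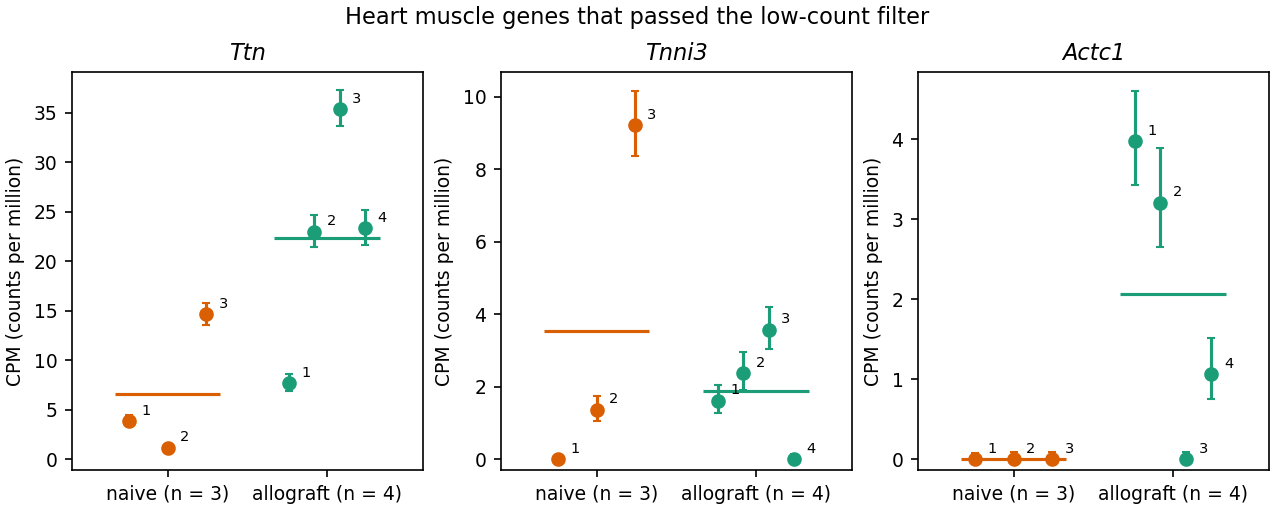
CPM of Ttn, Tnni3 and Actc1 in each library, with naive libraries in orange and allograft libraries in green, replicate numbers beside the points, 95% Wilson intervals as bars and the group mean as a line. For Ttn naive replicate 3 (14.6 CPM) lies above allograft replicate 1 (7.70 CPM), for Tnni3 each group has a library at 0, and for Actc1 allograft replicate 3 is at 0 with the naive libraries.

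Nppa, the gene of the atrial natriuretic peptide, had 17 counts in allograft replicate 3 (0.416 CPM) and 0 in the other 6 libraries. It shares 532 exon bases, 61.5% of its own, with the antisense gene Gm13054, which had 43 counts in that library, 13 in allograft replicate 1 and 11 in allograft replicate 4. Mb overlaps the antisense gene Gm49540, and both were at 0 throughout. For calcium release, the only member, Ryr2, was at 0 throughout although its annotated exons span 28790 bases.

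Only 3 of the 10 genes passed the low-count filter, and 0 of these 3 differed between allograft and naive libraries at an edgeR adjusted p under 0.05. Over all genes tested, 6 of 17015 did, which is 0.0353%, with 0.0294% higher and 0.00588% lower in allografts. At an unadjusted p under 0.05 there was 1 member of the 3, Actc1, where 10.3% of all genes tested reached it. Actc1 was at 0 in the naive libraries and passed the filter only through the allografts, so its direction was fixed in advance. DESeq2, which tested 6 of the 10, called 1, and it called 5.11% of all genes it tested. No member was separated between the groups, whereas 12.5% of the genes tested had all allograft values above all naive values and 2.15% had all of them below. Myh6, Myl3 and Nppa had counts but were not tested, and Myl2, Tnnt2, Mb and Ryr2 had none. In these bulk libraries, fewer cells of a type and less RNA per cell cannot be told apart. The libraries were pools, so that the p-values measure the spread between pools and not between animals.

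**Figure D3:**
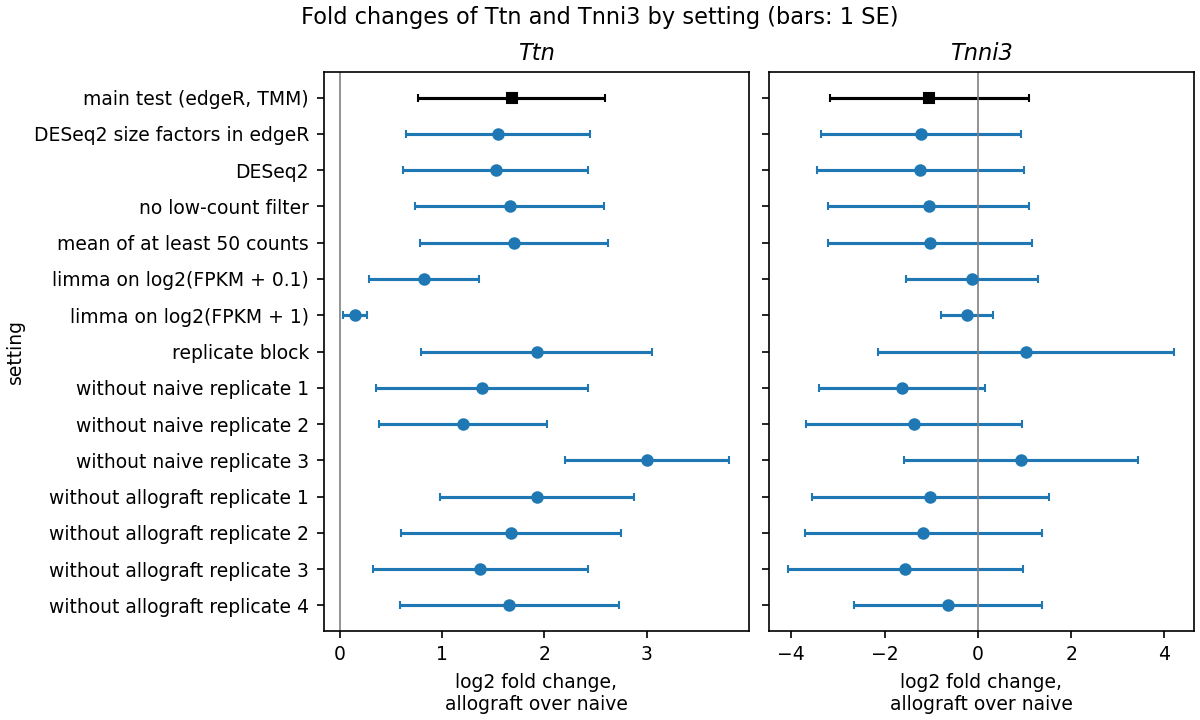
Log2 fold change, allograft over naive, of Ttn and Tnni3 under the main test (black squares) and each alternative (blue circles), with bars of 1 SE. Ttn lies between 0.15 and 3.01 in the alternatives and Tnni3 between -1.63 and 1.04, on both sides of 0.

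The order of the genes depended on whether length was taken into account. Levels of different genes were compared as FPKM, which scales fragments to gene length and depth. By counts, Ttn made up 30.1% of the reads of the 10 genes in naive replicate 2 and 57.9% to 100% in the other libraries. Per length, Ttn was the lowest of the detected members in every library in which another member was detected. In naive replicate 3, Tnni3 stood at 3.94 FPKM and Ttn at 0.1102 FPKM. In allograft replicate 1 the order was Actc1 (2.11 FPKM), Tnni3 (0.634 FPKM) and Ttn (0.0565 FPKM), and in allograft replicate 2 it was the same at 1.71, 0.971 and 0.170 FPKM. In allograft replicate 3 Tnni3 (1.48 FPKM) preceded Nppa (0.397 FPKM) and Ttn (0.262 FPKM), and in allograft replicate 4 Actc1 (0.567 FPKM) preceded Ttn (0.172 FPKM). In naive replicate 2 the order was Tnni3 (0.580 FPKM), Myl3 (0.314 FPKM), Myh6 (0.0839 FPKM) and Ttn (0.00903 FPKM). The first place was thus held by Tnni3 in 3 libraries and by Actc1 in 3 libraries, and naive replicate 1 had Ttn alone at 0.0287 FPKM. Among genes with a value above 0 in the same library, Actc1 reached at most the 57.7th percentile, Tnni3 the 50.4th and Ttn the 21.6th. The members did not follow a common pattern: Pearson's r of log2(CPM + 0.5) over the 7 libraries was -0.10 for Actc1 and Tnni3, 0.28 for Actc1 and Ttn and 0.27 for Tnni3 and Ttn, as a description of libraries that differ in depth and composition.

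Summed over the 10 genes, the level was 3.86 CPM in naive replicate 1 (95% Wilson interval 3.37 to 4.43), 3.87 CPM in naive replicate 2 (3.34 to 4.48) and 23.9 CPM in naive replicate 3 (22.5 to 25.4). In allograft replicates 1 to 4 it was 13.3, 28.6, 39.4 and 24.4 CPM. The log2 ratio of the group means was 1.33, and 2.77 without naive replicate 3. For the 9 genes other than Ttn it was 0.029, a value that rests on naive replicate 3, since it was 1.59 without that library and -0.56 without naive replicate 1. These 9 genes had a naive mean of 3.98 ± 4.74 CPM (SD, n = 3) and an allograft mean of 4.06 ± 2.13 CPM (SD, n = 4). In summed FPKM the 10 genes stood at 0.0287, 0.986 and 4.05 in naive replicates 1 to 3 and at 2.80, 2.85, 2.14 and 0.739 in allograft replicates 1 to 4. GATA3 is the lineage factor of ILC2s, and its gene alone was 53.1 to 5004 times that sum in 6 libraries. In naive replicate 2 it was 8.13 times the sum.

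Markers of other cells differed between the libraries, most of all in naive replicate 2. There the 10 ILC2 genes, led by Rora, summed to 168.5 CPM, against 4846 to 7260 CPM in the other 6 libraries. The ST2 gene Il1rl1 stood at 0.901 FPKM there and at 44.1 to 94.9 FPKM elsewhere, and the CD45 gene Ptprc at 0.584 and at 11.5 to 35.04 FPKM. Kidney tubule genes, led by Umod, summed to 10834 CPM in naive replicate 2 and to 58.3 to 287 CPM elsewhere, and all 10 of them had more than 3 counts there. Endothelial genes, led by Emcn, summed to 597 CPM there (39.02 to 62.8 elsewhere) and smooth muscle and mural genes, led by Acta2, to 467 CPM (3.12 to 17.9 elsewhere). Erythroid genes, led by Hba-a1, summed to 2937 CPM there and to 468 to 786 CPM elsewhere, and fibroblast genes, led by Gsn, to 336 CPM there and 7.82 to 216 CPM elsewhere. Lung epithelial genes, led by Sftpc, summed to 0.716 and 1.89 CPM in naive replicates 1 and 2 and to 243 to 668 CPM in the other 5. Macrophage genes, led by Lyz2, were lowest in naive replicate 1 at 2.49 CPM and reached 470.03 CPM in naive replicate 3. Naive replicate 2, the library with Myh6 and Myl3, thus also held the most kidney, endothelial and mural RNA, and the part of these in its muscle counts was not tested.

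**Figure D4:**
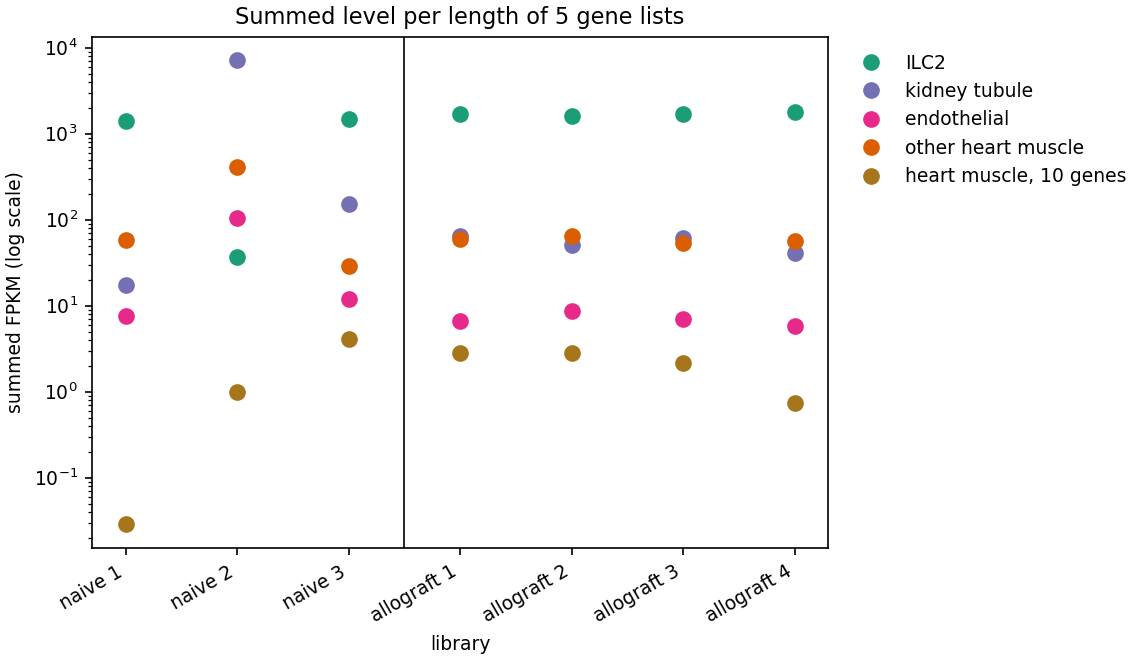
Summed FPKM of 5 gene lists in each library on a log axis: ILC2 (green), kidney tubule (violet), endothelial (pink), other heart muscle (orange) and the 10 heart muscle genes (brown). Of these 5 lists the 10 genes lie lowest in every library, between 0.0287 and 4.05 FPKM, and naive replicate 2 is the only library in which kidney tubule genes exceed the ILC2 genes.

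A wider list of 46 other genes with a role in heart muscle gave a mixed picture. Of these, 10 had no count in any library, among them the natriuretic peptide gene Nppb and the transcription factor genes Nkx2-5, Tbx20 and Hand2. Only 3 had more than 3 counts in all 7 libraries: Atp2a2, Actn2 and Eno3. Atp2a2 encodes the calcium pump SERCA2, which most cell types also carry, and it stood at 76.7 to 166 CPM. Actn2, the alpha actinin of the Z disc, stood at 93.7, 9.30 and 40.3 CPM in naive replicates 1 to 3 and at 84.9 to 111 CPM in allografts. It was lowest in naive replicate 2, the library lowest in ILC2 genes. Of the 36 genes with a count, 16 were highest in naive replicate 2. The share of all genes highest in that library was not computed, so this number has no background.

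**Figure D5:**
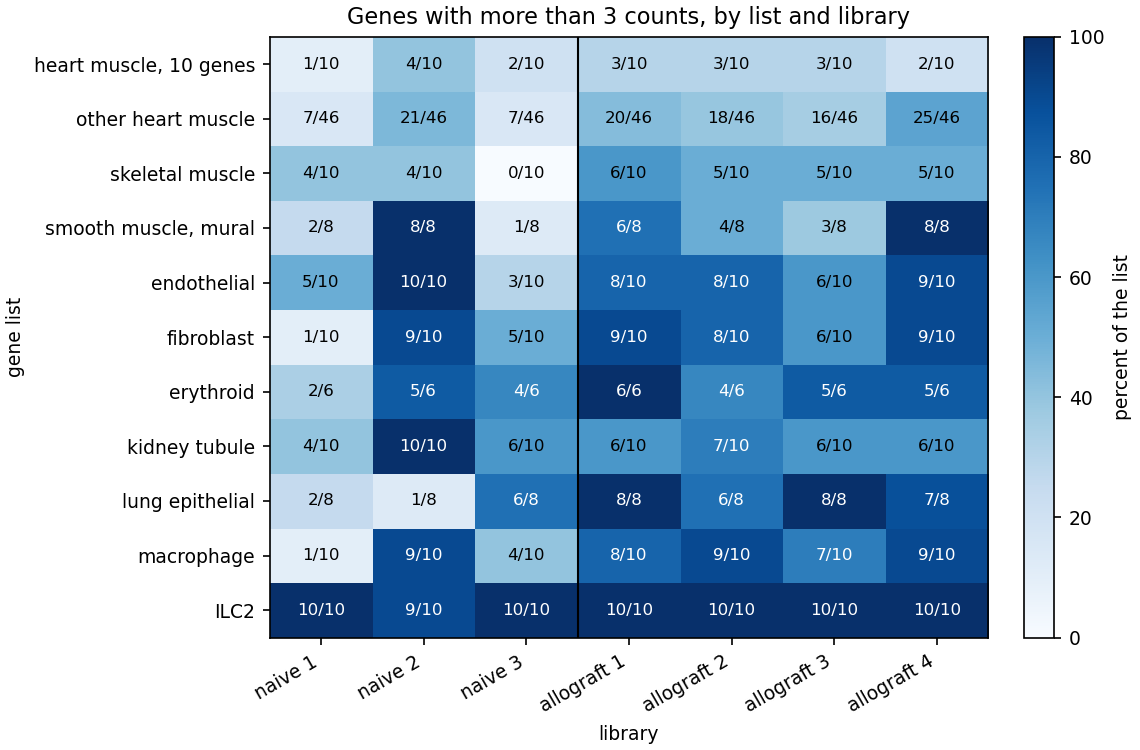
Number of genes with more than 3 counts out of all genes in each list (rows) and library (columns), with colour for the percentage. The 10 heart muscle genes have 1 to 4 such genes per library, while at least 9 of 10 ILC2 genes are counted everywhere.

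By role, the energy genes Fabp3 and Cox7a1, which encode a fatty acid carrier and a subunit of the respiratory chain found also in other tissues, had 155 and 102 CPM in naive replicate 2 and at most 3.73 and 4.78 CPM elsewhere. The sodium-calcium exchanger gene Slc8a1 had 38.0 CPM and the potassium channel gene Kcnq1 38.4 CPM in naive replicate 2, with at most 6.61 and 1.41 CPM elsewhere. The atrial light chain gene Myl4 had 5.71 CPM in naive replicate 1, 0 in the other naive libraries and 1.98 to 11.9 CPM in allografts. The M band gene Myom1 reached 15.01 CPM in naive replicate 2. The tropomyosin gene Tpm1, used by many cell types, had 0 counts in naive replicate 3 and 20.3 to 112 CPM elsewhere. The Z disc gene Nexn had 9.10 CPM in naive replicate 2 and at most 1.86 CPM elsewhere. The gap junction gene Gja1 had at most 2.24 CPM, and Tnni1, the slow skeletal troponin I, at most 1.48 CPM. Mef2c, a transcription factor of muscle and of lymphoid and myeloid cells, was at 18.6 CPM in naive replicate 2, at 0 in the other naive libraries and at 4.63 to 10.4 CPM in allografts. Tbx5, a factor of heart development, had 20 counts in allograft replicate 3 and 0 elsewhere.

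Of the 46 genes, 17 passed the filter and 0 passed the edgeR test, with 2 at an unadjusted p under 0.05, a share near the 10.3% of all genes. The fold change was above 0 for 5 of the 17, with a median log2 of -1.28, against 49.4% and -0.01 over all 17015 genes. Without naive replicate 2, 16 of 19 were above 0. The median was 2.97 with the 12 genes at the naive floor measured against that floor, or 7.27 as fitted. These 12 passed the filter only through the allografts, so a fold change above 0 was fixed in advance for them. The change of direction is therefore no result about heart muscle genes. In the same setting 58.7% of all 18037 genes were above 0, with a median of 0.23 as fitted, and 3.1% of them passed. Of the 19 heart muscle genes 3 passed, all of them among those 12 and at 0 counts in naive replicates 1 and 3: Mef2c (edgeR adjusted p = 0.0352), Cox7a1 (0.0410) and Slc8a1 (0.0437). Of the 17, 1 was separated between the groups, the potassium channel gene Kcnd2, named after its values were seen. Over all genes tested, 12.5% had all allograft values above all naive values. Kcnd2 had 0 counts in the naive and 14, 34, 38 and 36 counts in the allograft libraries, so it passed the filter only through the allografts. Its allograft mean was 13.9 times the mean naive floor, which covers counting error only (edgeR adjusted p = 0.144, DESeq2 adjusted p = 2.3e-05).

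Genes whose level followed the sum of the 10 heart muscle genes most closely were sought among 10967 genes with a mean of at least 5 CPM. The highest Pearson's r of log2 CPM over the 7 libraries was 0.988 for Gm29361, followed by Gm38126 (0.987), AC156031.2 and Ikbkb (0.986 each) and AU019823 (0.983). None of the 5 is on the heart muscle list. Ikbkb, the kinase subunit that releases NF-kappaB from its inhibitor, stood at 47.8, 38.4 and 125.1 CPM in the naive and 95.7, 136, 142 and 123 CPM in the allograft libraries. The sum itself had an r of 0.9503 with Ttn, and these 5 genes had an r of 0.921 to 0.981 with Ttn. Of all genes searched, 41 of the 10967 genes (0.374%) reached an r of 0.95. These values are a description over 7 libraries that share depth and composition.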

How the data were processed

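The authors deposited read counts and FPKM (fragments scaled to gene length and depth) for 55335 identifiers in 7 libraries. Per the labels' protocols, cDNA was made and amplified by a full-length method meant for single cells. The submitters' processing notes name STAR 2.5.3a, StringTie 1.3.1c, DESeq2 1.16.1, FastQC 0.11.5 and mm10. Their roles, the annotation and the use of strand are not given in the sources used here. The 10 genes and all gene lists were chosen with earlier results of these data known. CPM are counts scaled to a library total of 1000000. The test was edgeR 4.0.16 (quasi-likelihood, TMM, filterByExpr, Benjamini-Hochberg adjustment over 17015 genes, threshold 0.05) in R 4.3.3, tested on simulated data, with limma 3.58.1 and DESeq2 1.42.0 as alternatives. The simulated counts had a set spread and no library of differing composition. How the test performs at the spread of the real libraries was not tested. edgeR standard errors were derived from its F statistic. Wilson intervals (95%) and floors of 3 counts cover counting error only, and amplified reads carried no molecular identifiers. Named were the 10 genes, the 2 highest other heart muscle genes per role, the highest gene of each further list, the defining genes Il1rl1, Gata3 and Ptprc, and the 5 genes most like the summed level. All 138 listed symbols matched 1 identifier. Annotation came from GENCODE M21 (GRCm38), and promoters from RefSeq (GRCm38.p6). A planned comparison of protein sequences was not made, and shared 50-base windows of transcripts were counted instead. Titles gave the groups and replicate numbers.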

Additional observations from a re-analysis of the deposited data

Results flagged for a closer look

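In the 4 allograft libraries, 30 values (genes and summed lists) were examined for 1 library that stood far from the other 3, and 2 did, where chance gives about 1 in 20, or 1.5. For Nppa, allograft replicate 3 held 0.416 CPM while replicates 1, 2 and 4 were at 0. For Tbx5, that same library held 0.489 CPM while the others were at 0. Both values rest on few reads of 1 library. A gene counted in only 1 allograft is flagged whatever its level, so the rate of 1 in 20 does not apply to these 2. Groups of 3 were not examined in this way.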

How the results depend on the processing

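The number of members past the threshold was 0 in 13 of 14 alternatives and 1 with DESeq2. The number of all genes past it (6) was 1227 with DESeq2, 201 with limma on log2(FPKM + 0.1), 76 with limma on log2(FPKM + 1), 4 with DESeq2 size factors, 4 without a low-count filter, 5 with a mean of at least 50 counts and 0 with a replicate block (252 at an unadjusted p under 0.05). It ran from 0 to 560 when 1 library was left out, the highest when naive replicate 2 was omitted. Omitting naive replicate 1 gave 107, omitting naive replicate 3 gave 7, and omitting an allograft gave 0 each time (848 to 1074 at an unadjusted p under 0.05). Of the other heart muscle genes, 1 passed with DESeq2, Kcnd2, and 0 to 3 when 1 library was left out. The log2 ratio of the summed members (1.33) was -0.31 for the whole heart muscle list and 0.029 without Ttn, an alternative added after the data were seen, and ran from 0.93 to 2.77 when 1 library was left out, the highest without naive replicate 3. For the 9 genes without Ttn it ran from -0.56 to 1.59 when 1 library was left out (-0.56 and -0.18 without naive replicates 1 and 2, 1.59 without naive replicate 3, -0.165, -0.164, 0.037 and 0.35 without allograft replicates 1 to 4), also added after the data were seen. The ratio of all 10 members was 1.20 with TMM, 1.013 with DESeq2 size factors and 0.34 in FPKM. The log2 fold change of Tnni3 (-1.04) was 1.04 with a replicate block, 0.92 without naive replicate 3 and from -1.63 to 0.92 when 1 library was left out, and the cause was not tested. Actc1 could not be tested with a mean of at least 50 counts or without allograft replicate 1, 2 or 4, since it then failed the filter. DESeq2 size factors moved the median log2 fold change of all genes from -0.01 to -0.20. Whether replicate numbers pair the libraries was not settled. Deviations of same-numbered libraries correlated at 0.05, -0.04 and 0.02. With the block 0 members passed, as in the main test, so that number cannot bear on pairing. By counting error alone, a gene at 0 lies at or below the floor of 3 counts, at most 0.103 CPM per library. Transcripts lost before sequencing are not covered by that floor.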

Other observations

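Of 10 genes of skeletal muscle, listed as a comparison, 5 passed the low-count filter. Of these 5, 3 had higher CPM in every allograft than in every naive library, as did 12.5% of all genes tested. Each of these 3 had a naive library at 0 counts and passed the filter only through the allografts, where it was high. The count of 3 is therefore no result about skeletal muscle genes. Tnni2 was named by rule, as the gene with the highest mean CPM of its list over the 7 libraries. That mean came mostly from the allografts, so the rule favoured a gene high there. The other genes below were named after their values were seen. Tnni2, the fast skeletal troponin I, had 0, 26 and 0 counts in naive replicates 1 to 3 and 659, 526, 888 and 568 counts in allograft replicates 1 to 4. The naive mean was 0.191 ± 0.330 CPM (SD, n = 3) and the allograft mean was 18.1 ± 3.08 CPM (SD, n = 4). The log2 fold change was 6.00 (SE 2.10, edgeR adjusted p = 0.342), and Tnni2 passed in 4 of 14 alternatives, among them DESeq2 (adjusted p = 0.0354) and edgeR without naive replicate 2 (adjusted p = 0.0234), while the adjusted p ran up to 1. Mylpf, the fast skeletal regulatory light chain, had 27, 131 and 0 counts in the naive and 491, 503, 378 and 333 counts in the allograft libraries. Its log2 fold change was 2.88 (SE 1.71, edgeR adjusted p = 0.676), and it passed in none of the 14 alternatives, with adjusted p-values from 0.0752 to 1. Ryr1, the skeletal ryanodine receptor gene, had 202, 15 and 0 counts in the naive and 175, 224, 400 and 112 counts in the allograft libraries (edgeR adjusted p = 0.781). Its groups were barely apart, at 3.81 CPM in naive replicate 1 and 3.85 CPM in allograft replicate 4. In GENCODE M21 neither Tnni2 nor Mylpf shares exon bases with another gene. The other tested genes did not follow: Tnnt3 was highest in naive replicate 1 at 2.07 CPM (log2 fold change 0.27, edgeR adjusted p = 0.992), and Atp2a1 was higher in naive replicate 2 at 1.89 CPM than in allograft replicates 1 and 2 (log2 fold change 0.84, edgeR adjusted p = 0.956). Of the genes that were not tested, Myh1, Myh2, Myh4 and Tnnc2 had 0 counts in all 7 libraries. Acta1, also not tested, had 6, 1 and 1 counts in the naive and 5, 3, 6 and 3 counts in the allograft libraries.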
